A study of Homo sapiens with 52 samples.

Results

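EIF2D mRNA was described through 1 row, the transcript ENST00000271764, of the 226882 transcript rows in a table of counts from HEK293T, a transformed cell line from human embryonic kidney. The row was chosen by its identifier, with the version suffix removed, and not by any measured value. It had a value in all 42 libraries that have a column, in 20 groups and 4 assays. The identifier was the only link to the gene, since no table of gene names for transcripts was used here.

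eIF2D, the protein made from this mRNA, is a non-canonical translation factor with an SUI1 domain, and it can bind the small (40S) ribosomal subunit. MCTS1 and DENR bind each other, and both share domains with eIF2D, which also has a winged-helix domain that they lack. These proteins are known for removing the deacylated tRNA and the mRNA from the 40S subunit after termination, a step called 40S recycling, and for reinitiation downstream of short upstream reading frames. The series title places eIF2D in 40S recycling.

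Each group had 2 libraries, apart from wild type (WT) TCP-seq with 4. RNA-seq, which counts mRNA fragments, and Ribo-seq, which counts mRNA fragments protected by ribosomes from RNase I in cycloheximide, each covered 6 groups. These were cells given the DENR siRNA #1 or #2 (siDENR), cells given a control siRNA (siControl), 2 MCTS1 knockout lines (MCTS1 KO #1 and #2) and unmodified WT cells. TCP-seq, translation complex profiling, covered 2 eIF2D knockout lines (eIF2D KO #1 and #2), the same 2 MCTS1 KO lines and WT. 40S Sel-TCP-seq covered small-subunit complexes pulled out by V5-tagged eIF2D (eIF2D-V5), V5-tagged MCTS1 (MCTS1-V5) or V5-tagged DENR (DENR-V5).

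All groups share the HEK293T background. The knockout lines are numbered as separate lines and are called clones here. Each is 1 line, so 2 libraries of a clone do not sample the spread between clones. The sources used here do not give the place where each gene was disrupted, the siRNA dose and duration, or how the tagged proteins were expressed. Labels do not say whether replicates were separate cultures. The p-values therefore speak only of the spread among these libraries, and this may be technical. Whether DENR or MCTS1 was depleted was not checked here.

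Total counts were 76967099 to 301214608 per RNA-seq library, 16370112 to 193940882 per Ribo-seq library, 1609303 to 5053637 per TCP-seq library and 356019 to 2582917 per Sel-TCP-seq library. In both RNA-seq and Ribo-seq, the MCTS1 KO #1 libraries were the deepest. EIF2D had 813 to 4940 counts in an RNA-seq library and 109 to 1297 in a Ribo-seq library. It had 4 to 29 in a TCP-seq library and 0 to 10 in a Sel-TCP-seq library. Levels are given as CPM, the counts scaled to the library total, and intervals are 95%. Intervals from counts are exact Poisson intervals and cover counting error only.

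Cells given siDENR had more EIF2D mRNA than cells given siControl. The EIF2D level in RNA-seq was 19.4 and 17.9 CPM in siDENR #1 cells and 15.0 and 13.9 CPM in siDENR #2 cells, against 10.6 CPM in each of the 2 siControl libraries. All 4 siDENR libraries lay above both siControl libraries, and the siDENR #1 pair lay above the siDENR #2 pair. The mean of both siRNAs was 1.52-fold that of siControl (1.39 to 1.66), a log2 change of 0.60 ± 0.06 (SE, adjusted p = 2.2e-10, edgeR's quasi-likelihood test with Benjamini-Hochberg adjustment over 135066 transcripts).

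Changes were common in that comparison, and 27.7% of the transcripts tested had an adjusted p under 0.05. EIF2D's change lay at percentile 94.7 of all of them, where the median log2 change was -0.01. Each siRNA alone gave a call, with a log2 change of 0.82 ± 0.07 for siDENR #1 (adjusted p = 9.4e-13) and 0.39 ± 0.07 for siDENR #2 (adjusted p = 4.3e-05). Of all transcripts, 30.4% were called for siDENR #1 and 23.3% for siDENR #2. The difference between the 2 siRNAs was itself past the threshold, at 0.42 ± 0.07 (adjusted p = 4.3e-06), in a comparison where 29.0% of transcripts were called. Over the libraries alone, the exact two-sided permutation test gave p = 0.133, the smallest that its 15 splits allow.

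Ribosome footprints on EIF2D were also higher in siDENR than in siControl cells. The footprint level was 7.10 and 7.82 CPM in siDENR #1 cells and 7.26 and 6.66 CPM in siDENR #2 cells, against 5.75 and 4.50 CPM in siControl cells. The groups did not overlap, and the 2 siControl libraries lay further apart than the pair of either siRNA. The footprint level rose 1.39-fold (1.16 to 1.67), a log2 change of 0.48 ± 0.13 (adjusted p = 0.0126, edgeR), where 11.7% of 115341 transcripts were called.

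This call rests on 1 control library: without siControl replicate 2 the log2 change was 0.30 (adjusted p = 0.30). Taken alone, siDENR #1 had a log2 change of 0.52 ± 0.15 in footprints (adjusted p = 0.018, where 11.8% of transcripts were called) and siDENR #2 one of 0.43 ± 0.15 (adjusted p = 0.062). The call for siDENR #1 was also lost without siControl replicate 2, with a change of 0.34, and without siDENR #1 replicate 2, with a change of 0.46. The 2 siRNAs were not told apart in footprints, with a difference of 0.08 ± 0.15 (adjusted p = 0.79).

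**Figure D1:**
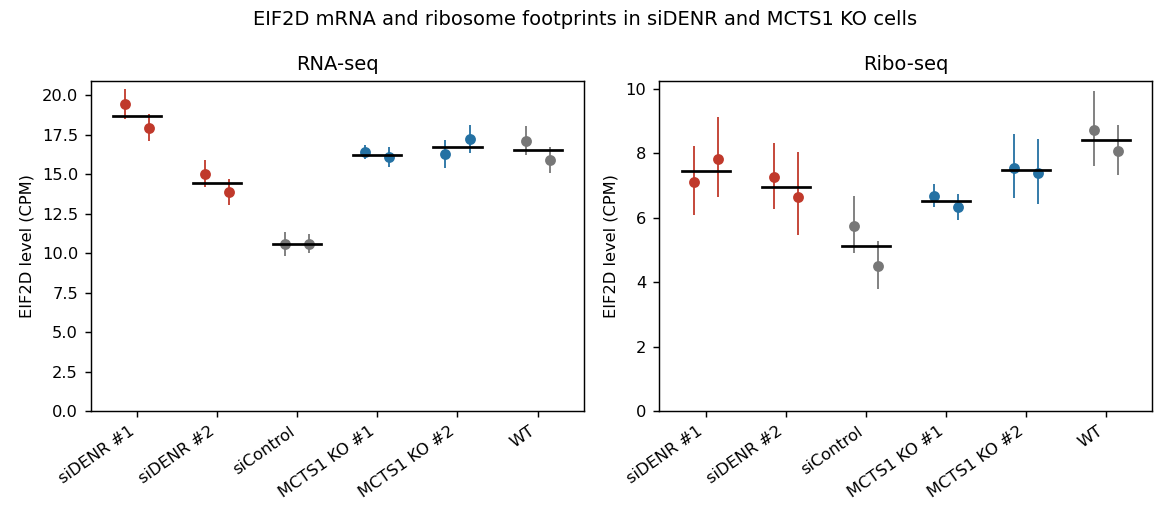
EIF2D level in CPM in each RNA-seq library (left) and Ribo-seq library (right), by group, with exact Poisson 95% intervals as vertical lines and group means as black bars. Both siControl libraries sit at 10.6 CPM in RNA-seq, below every other library, and the WT libraries are the highest in Ribo-seq, at 8.73 and 8.09 CPM.

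Untransfected WT cells show where these levels stand. In RNA-seq, EIF2D was at 10.6 ± 0.02 CPM in siControl cells and 16.5 ± 0.89 CPM in WT cells (SD, n = 2 each). This is a 0.643-fold level in siControl (0.582 to 0.710), a log2 change of -0.64 ± 0.07 (adjusted p = 2.0e-09, edgeR), where 27.3% of transcripts were called. The change lay at percentile 5.37 of all transcripts.

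Footprints were also lower in siControl, at 5.12 ± 0.88 CPM, than in WT cells, at 8.41 ± 0.45 CPM (SD, n = 2 each). The log2 change was -0.75 ± 0.14 (adjusted p = 2.5e-04, edgeR), where 11.4% of transcripts were called. Transfection and the run of library names cannot be told apart in this comparison.

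Against WT in place of siControl, the 2 siRNAs lay on opposite sides in EIF2D mRNA. The DENR siRNA, transfection and the run of library names cannot be told apart in comparisons of siDENR with WT. Both siDENR #1 libraries (19.4 and 17.9 CPM) were above, and both siDENR #2 libraries (15.0 and 13.9 CPM) below, the WT libraries (17.1 and 15.9 CPM). The log2 change against WT was 0.18 ± 0.07 for siDENR #1 (0.04 to 0.32, adjusted p = 0.031, edgeR), where 41.8% of transcripts were called. For siDENR #2 it was -0.24 ± 0.07 (-0.39 to -0.10, adjusted p = 0.0051), where 35.6% were called.

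Both calls are fragile. The siDENR #1 call was lost without WT replicate 2 (0.12, adjusted p = 0.34) and without its own replicate 1 (0.11, adjusted p = 0.25), with DESeq2 (adjusted p = 0.056) and without the filter (adjusted p = 0.054). The siDENR #2 call was lost without WT replicate 1 (-0.18, adjusted p = 0.12) and without its own replicate 2 (-0.18, adjusted p = 0.12). The mean of both siRNAs averages these opposite values: its log2 change was -0.03 ± 0.06 in mRNA (-0.15 to 0.09, adjusted p = 0.70), where 42.3% of transcripts were called.

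In footprints, all 4 siDENR libraries (6.66 to 7.82 CPM) lay below both WT libraries (8.73 and 8.09 CPM). The mean of both siRNAs had a log2 change of -0.28 ± 0.12 (-0.52 to -0.03, adjusted p = 0.13), where 13.2% were called, so its interval excludes 0 only without adjustment for the number of transcripts. Alone, siDENR #1 had -0.23 ± 0.14 (adjusted p = 0.30), where 13.2% were called, and siDENR #2 had -0.32 ± 0.14 (adjusted p = 0.16), where 11.6% were called. The comparison of siDENR with siControl and that of siControl with WT share the siControl libraries, so the size of one is tied to that of the other.

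MCTS1 KO cells had EIF2D mRNA near its WT level. The RNA-seq level was 16.4 and 16.1 CPM in MCTS1 KO #1 and 16.3 and 17.2 CPM in MCTS1 KO #2, against 17.1 and 15.9 CPM in WT cells. Knockout and WT libraries overlapped. The fold was 1.00 (0.921 to 1.09, adjusted p = 0.998, edgeR), where 17.3% of transcripts were called. An exact two-sided permutation test over the libraries gave p = 0.933.

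In footprints, the mean of both MCTS1 KO clones gave no call for EIF2D. The Ribo-seq level was 6.69 and 6.33 CPM in MCTS1 KO #1 and 7.56 and 7.39 CPM in MCTS1 KO #2, against 8.73 and 8.09 CPM in WT cells. All 4 knockout libraries lay below both WT libraries, and clone #1 lay below clone #2. The clone #1 libraries were also the deepest in Ribo-seq, at 193940882 and 148159238 total counts. The next deepest, WT replicate 2, had 53386368, so clone #1 and depth cannot be told apart here. The mean of both clones had a log2 change of -0.27 ± 0.11 (-0.50 to -0.04, adjusted p = 0.19, edgeR), in a comparison with 5.05% of transcripts called.

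MCTS1 KO #1 alone had a log2 change of -0.37 ± 0.13 in footprints (adjusted p = 0.047, where 12.7% of transcripts were called). That call was lost in 7 of 10 alternative settings, where the adjusted p reached 0.28. MCTS1 KO #2 alone had a change of -0.17 (adjusted p = 0.69), and the difference between the clones was not past the threshold (-0.20, adjusted p = 0.36). The exact two-sided permutation test over the 6 libraries gave p = 0.133, again the smallest it allows.

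The siDENR and MCTS1 KO effects on EIF2D differed when set against each other. In RNA-seq, the siDENR change against siControl minus the MCTS1 KO change against WT was 0.60 ± 0.09 on the log2 scale (0.43 to 0.78, adjusted p = 6.1e-07, edgeR), where 20.2% of transcripts were called. In Ribo-seq the same difference was 0.75 ± 0.17 (0.39 to 1.10, adjusted p = 0.0044), where 7.50% were called. Without Ribo-seq siControl replicate 2 the Ribo-seq difference was 0.57 (adjusted p = 0.087). Each effect is measured against its own control, and the siControl level is the lowest of the 6 groups in both assays.

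The level of footprints per level of mRNA was compared next. The ratio of Ribo-seq CPM to RNA-seq CPM was 0.399 ± 0.035 in siDENR #1, 0.482 ± 0.040 in siDENR #2 and 0.484 ± 0.084 in siControl (error propagated from the SD of 2 libraries in each assay). It was 0.401 ± 0.017 in MCTS1 KO #1 and 0.447 ± 0.019 in MCTS1 KO #2, against 0.509 ± 0.039 in WT. The WT ratio of EIF2D lay at percentile 31.3 of 87273 transcripts, whose median ratio was 0.734. The transcripts ranked had a mean of at least 1 CPM in WT RNA-seq and a count in WT Ribo-seq.

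Translational efficiency, tested as the Ribo-seq change minus the RNA-seq change in 1 edgeR model, gave no call. For siDENR against siControl the log2 change was -0.13 ± 0.14 (-0.40 to 0.15, adjusted p = 0.77), where 0.589% of 108390 transcripts were called. Alone, siDENR #1 had -0.30 ± 0.16 (adjusted p = 0.41) and siDENR #2 had 0.05 ± 0.16 (adjusted p = 0.95). Their difference was -0.35 ± 0.16 (-0.66 to -0.03, adjusted p = 0.36), below 0 only without adjustment. For MCTS1 KO against WT the log2 change was -0.28 ± 0.12 (-0.52 to -0.05, adjusted p = 0.46), where 0.779% were called. The MCTS1 KO interval lies below 0 without adjustment for the number of transcripts.

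**Figure D2:**
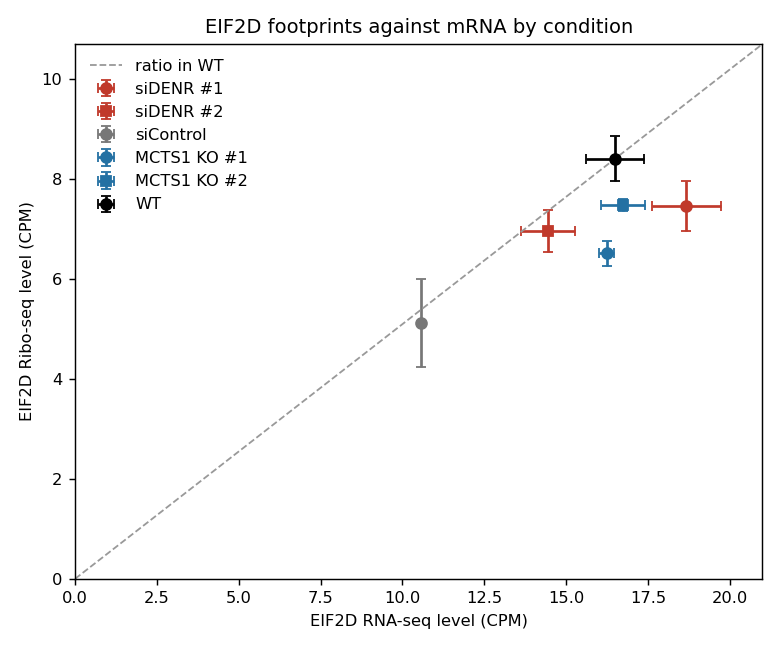
Mean EIF2D level in Ribo-seq against that in RNA-seq (both in CPM, bars give the SD of 2 libraries) for the 6 groups, with the WT ratio as a dashed line. siDENR #2 and siControl lie near the line, and siDENR #1 and both MCTS1 KO clones lie below it.

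**Figure D3:**
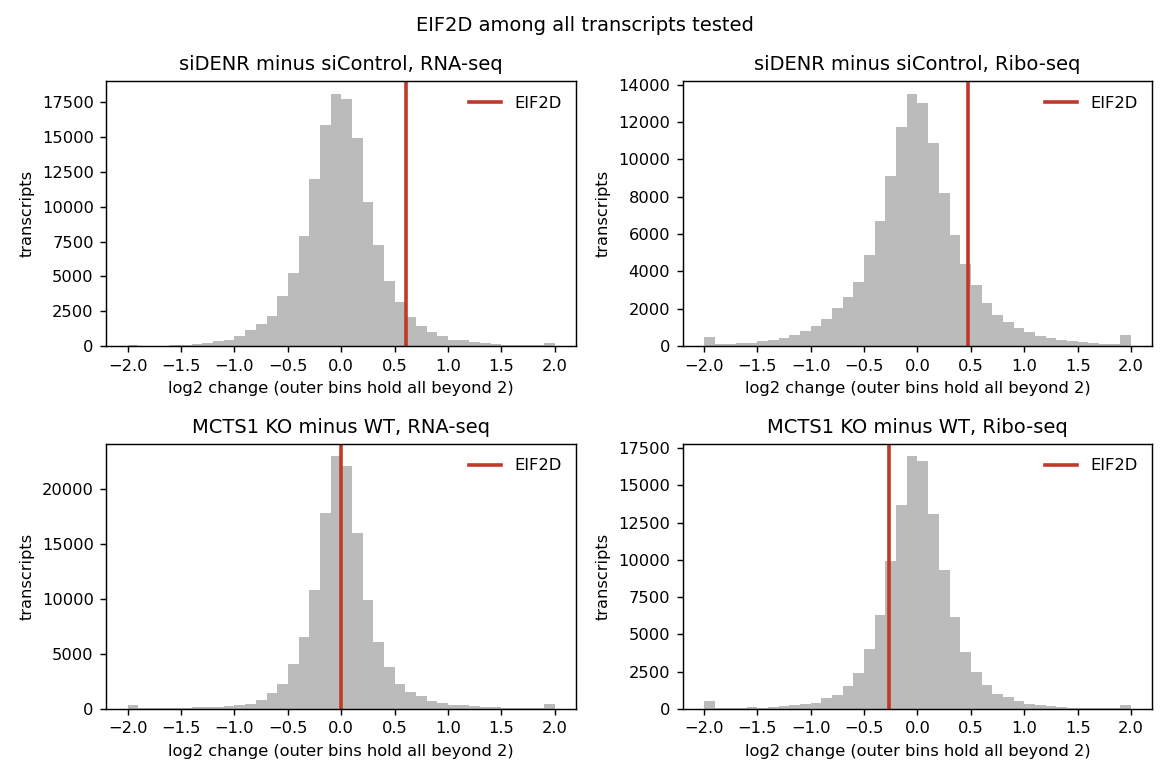
Histograms of log2 change over all transcripts tested in 4 comparisons, with EIF2D as a red line. EIF2D lies in the upper tail of both siDENR comparisons, at 0.60 in RNA-seq and 0.48 in Ribo-seq, near the centre for MCTS1 KO in RNA-seq and left of the centre, at -0.27, for MCTS1 KO in Ribo-seq.

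Libraries labelled eIF2D KO still held EIF2D fragments in TCP-seq. Library by library, eIF2D KO #1 had 5 and 17 counts and eIF2D KO #2 had 22 and 8, against 22 and 4 in WT replicates 1 and 2 and 8 and 7 in WT replicates 3 and 4. As levels these were 2.03 and 4.64 CPM in eIF2D KO #1 and 4.35 and 3.58 CPM in eIF2D KO #2, against 7.13, 2.08, 3.26 and 3.68 CPM in the 4 WT libraries. The knockout values lay inside the range of WT except for the lowest, which was just below it.

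Counts over a whole transcript do not check a knockout label, since a frameshift or small deletion can leave the mRNA in place. WT replicates 1 and 2, whose library names adjoin those of the eIF2D KO, served as its control. Summed over libraries, EIF2D had 3.87 CPM in eIF2D KO cells (2.89 to 5.08, from 52 counts), against 5.19 CPM in WT replicates 1 and 2 (3.39 to 7.61, from 26 counts). The ratio was 0.746 (0.458 to 1.24).

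The fitted log2 change was -0.48 ± 0.38 (-1.22 to 0.26, adjusted p = 0.66, edgeR), in a comparison where 1.63% of 50991 transcripts were called. Clone #1 had -0.62 ± 0.44 (adjusted p = 0.57) and clone #2 had -0.34 ± 0.42 (adjusted p = 0.75). The sign rests on WT replicate 1, without which the change was 0.74, and with WT replicates 3 and 4 as control it was 0.08. Against all 4 WT libraries the exact two-sided permutation test gave p = 0.914. EIF2D fragments were present in every library of both clones, and folds from 0.429 to 1.20 lie within the interval of the fit at this depth.

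In TCP-seq, EIF2D had 8 and 4 counts in MCTS1 KO #1 and 18 and 29 counts in MCTS1 KO #2, against 8 and 7 in WT replicates 3 and 4, the WT libraries next to them in library name. The levels were 4.06 and 2.49 CPM in clone #1 and 5.46 and 7.52 CPM in clone #2, against 3.26 and 3.68 CPM in that WT pair. Clone #2 lay above the WT pair and clone #1 lay on both sides of it. The log2 change for the mean of the clones was 0.40 ± 0.45 (-0.49 to 1.28, adjusted p = 0.61, edgeR), where 13.8% of transcripts were called, and with WT replicates 1 and 2 as control it was -0.16.

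The eIF2D KO effect minus the MCTS1 KO effect, each for libraries as labelled, was -0.88 ± 0.58 in TCP-seq (-2.03 to 0.28, adjusted p = 0.46, edgeR), where 3.48% of transcripts were called. It turned to 0.34 without WT replicate 1. Set against RNA-seq, EIF2D in TCP-seq had a CPM ratio of 0.202 ± 0.069 in MCTS1 KO #1 and 0.388 ± 0.088 in MCTS1 KO #2, against 0.245 ± 0.132 in WT. The WT ratio was at percentile 8.94 of 86344 transcripts, whose median was 0.696. The transcripts ranked had a mean of at least 1 CPM in WT RNA-seq and a count in WT TCP-seq. Those with no WT TCP-seq count were left out.

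**Figure D4:**
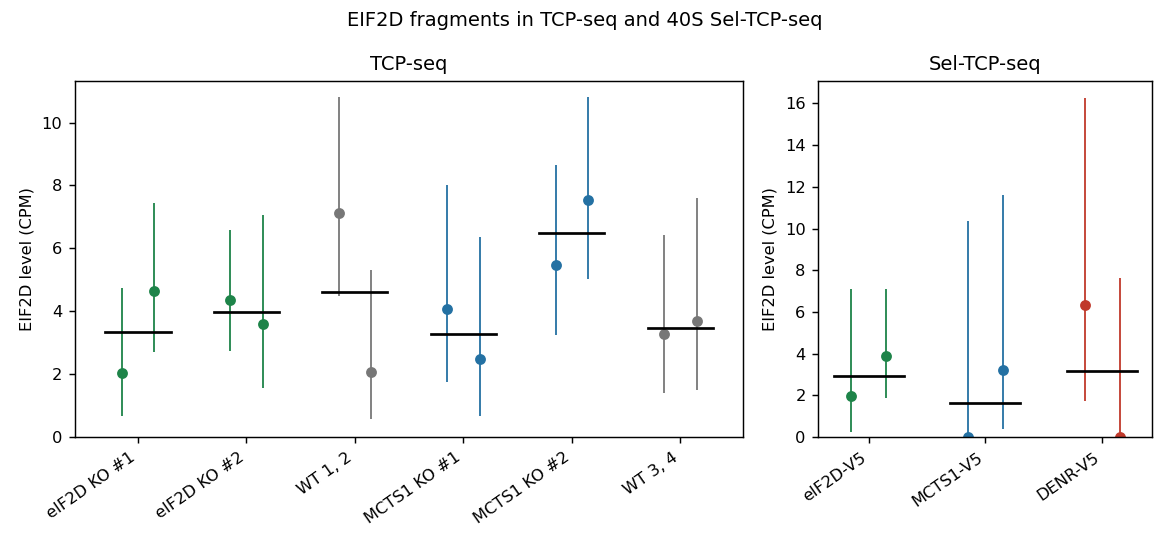
EIF2D level in CPM in each TCP-seq library (left) and 40S Sel-TCP-seq library (right), by group, with exact Poisson 95% intervals as vertical lines and group means as black bars. The eIF2D KO libraries, at 2.03 to 4.64 CPM, overlap the WT libraries, and the intervals of the 3 selections overlap throughout.

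Selection of 40S complexes through eIF2D-V5 gave few EIF2D fragments. The counts were 2 and 10 in eIF2D-V5 libraries, against 0 and 2 in MCTS1-V5 libraries and 4 and 0 in DENR-V5 libraries. A count of 0 allows up to 10.4 CPM in that MCTS1-V5 library and 7.64 CPM in that DENR-V5 library (upper ends of the Poisson intervals). Both limits are above both eIF2D-V5 levels of 1.97 and 3.87 CPM. Summed over libraries the level was 3.33 CPM in eIF2D-V5 (1.72 to 5.82), against 2.04 CPM in MCTS1-V5 (0.248 to 7.39) and 3.60 CPM in DENR-V5 (0.980 to 9.21).

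eIF2D-V5 over the other 2 selections together had a ratio of 1.16 (0.403 to 3.77). EIF2D had too few counts to pass the filter in this assay, where 22.1% of the 12135 transcripts tested were called. Without the filter its log2 change was 0.27 ± 0.88 (-1.46 to 2.00, adjusted p = 0.92, edgeR). That fit called 4139 transcripts, 3581 of them higher in eIF2D-V5 and 558 lower. It tested every transcript with a count in any Sel-TCP-seq library, a far larger set than the 12135. Fits of the same kind with 1 library left out tested 112211 to 124932 transcripts. With the replicate number as a block, also without the filter, the EIF2D log2 change was 0.26 (adjusted p = 0.96, edgeR). That block fit called 4704 transcripts, out of the same larger set. With the filter, which leaves EIF2D out, 4498 of the 12135 transcripts were called with the block, against 2681 without it. Leaving out 1 library at a time moved the EIF2D change between -0.37 and 2.74, so neither a direction nor a size was set. In those fits, also unfiltered, the median log2 change over all transcripts was 0.52 to 1.63. EIF2D lay between percentiles 21.5 and 81.6 of them, so a positive change there need not exceed that of a typical transcript. Whether an eIF2D-V5 expression construct added fragments to this row was not tested.

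Order of levels, high to low, was siDENR #1 (18.7 ± 1.06 CPM), MCTS1 KO #2 (16.7 ± 0.66), WT (16.5 ± 0.89), MCTS1 KO #1 (16.2 ± 0.23), siDENR #2 (14.4 ± 0.82) and siControl (10.6 ± 0.02) in RNA-seq (SD, n = 2 each). MCTS1 KO #2, WT and MCTS1 KO #1 did not differ beyond their spread, while siControl stood below all. In Ribo-seq the order was WT (8.41 ± 0.45 CPM), MCTS1 KO #2 (7.48 ± 0.12), siDENR #1 (7.46 ± 0.51), siDENR #2 (6.96 ± 0.43), MCTS1 KO #1 (6.51 ± 0.25) and siControl (5.12 ± 0.88). There, neighbours from MCTS1 KO #2 down to MCTS1 KO #1 did not differ beyond their spread.

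Other transcripts with a similar pattern were ranked by Pearson correlation of log2(CPM + 0.5), centred within each assay, over the 42 libraries and 63329 transcripts with a mean of at least 1 CPM in RNA-seq, Ribo-seq and TCP-seq. The median correlation with EIF2D was 0.163. ENST00000367114.7 was the most alike, with r = 0.98, and its deviations between replicates also correlated with those of EIF2D at r = 0.98. ENST00000437518.1 came next with r = 0.93, also r = 0.93 for deviations between replicates. It had log2 changes of 0.64 ± 0.08 in RNA-seq and 0.73 ± 0.18 in Ribo-seq for siDENR against siControl. The table pairs neither with a gene name.

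The sources used here do not say how reads over several transcripts were counted. ENST00000367114.7 had 21, 4, 8 and 7 counts in WT TCP-seq replicates 1 to 4, where EIF2D had 22, 4, 8 and 7. In WT RNA-seq it had 1207 and 1228, where EIF2D had 1368 and 1389. No transcript had counts identical to those of EIF2D. For deviations between replicates, 3 transcripts passed r = 0.95, ENST00000367114.7 among them. Whether either row holds the same reads as EIF2D was not tested on the reads themselves. The changes of both transcripts are therefore not separate support for those of EIF2D. In RefSeq's annotation of GRCh38.p14, EIF2D lies on the minus strand of chromosome 1, and its extent overlaps that of RASSF5 on the plus strand. No source says whether the counting used strand, so it is not known whether reads of the 2 genes in the shared stretch were told apart.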

How the data were processed

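Whole-number counts per transcript were made and deposited by the authors for all 4 assays. The submitters' processing notes name STAR, cutadapt, Subread and featureCounts, and the builds GRCh38.p13 and hg38. The sources used here do not give versions, strand or multi-overlap settings. Groups came from the sample labels, which give 52 samples; 42 have a column, and 10 TCP-seq samples in 5 groups (empty vector or eIF2D put back) were not analysed here.

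Counts were tested across all transcripts with edgeR 4.0.16 in R 4.3.3 (robust quasi-likelihood fit, TMM factors, Benjamini-Hochberg adjustment with a threshold of 0.05, filterByExpr at its minimum count of 10). All groups of an assay shared 1 fit, and standard errors were taken from the log2 change and its F statistic. A comparison averages both clones or siRNAs, so its p leaves out the spread between them. For translational efficiency, group and assay interacted in 1 model. EIF2D failed the filter in Sel-TCP-seq, so the fit without a filter was used there, a departure from the plan. Exact permutation tests of 6 comparisons were run with scipy 1.17.1 in Python 3.11.15; the lowest p adjusted over these was 0.267. In Sel-TCP-seq alone, differences between replicates of the same number correlated between all groups (0.11 to 0.40), though the labels tie the numbers to nothing. The fits were tested on simulated data, with changes put only into transcripts of higher mean counts than EIF2D had in TCP-seq or Sel-TCP-seq. That test therefore does not cover EIF2D in those 2 assays. In every assay it drew counts with 1 fixed level of spread between libraries, and not with the spread of these data.

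The transcripts named were EIF2D and the 2 most alike in pattern; MCTS1, DENR and related factors in the plan's list were not used, since no table paired transcripts with genes. The transcript, lists and tests were chosen with earlier results of these data known. siDENR against WT, for both siRNAs together and each alone, and the difference between the siDENR and MCTS1 KO effects were added after seeing the data. Alternatives were DESeq2, RLE factors, library totals, no filter, only the groups compared, a replicate block, other WT libraries and each library left out.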

Additional observations from a re-analysis of the deposited data

Results flagged for a closer look

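The difference between siDENR #1 and siDENR #2 in EIF2D mRNA, 0.42 on the log2 scale, was picked out because 2 siRNAs against the same target differed by a test of the difference itself. The levels were 18.7 CPM in siDENR #1 and 14.4 CPM in siDENR #2, both above siControl. Whether the siRNAs differed in DENR depletion was not tested.

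The siDENR effect minus the MCTS1 KO effect was picked out in RNA-seq, at 0.60, and in Ribo-seq, at 0.75, because the 2 effects differed by a test of the difference. Both values take in the low siControl level beside the WT level, and the part of that gap in the difference was not tested.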

How the results depend on the processing

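The EIF2D mRNA changes for siDENR against siControl and for siControl against WT kept direction and call under every alternative, from 0.57 to 0.64 and from -0.70 to -0.57. Leaving out 1 library at a time gave -0.062 to 0.063 for MCTS1 KO mRNA, -0.095 to 0.031 for siDENR against WT mRNA (siDENR #1 alone 0.11 to 0.24, siDENR #2 alone -0.31 to -0.18), 0.30 to 0.66 for siDENR footprints, 0.57 to 0.93 for the difference of effects in footprints, and in translational efficiency -0.30 to 0.050 for siDENR, -0.13 to 0.22 for siDENR #2, -0.31 to 0.035 for siControl against WT and -0.016 to 0.33 for the difference of effects. In TCP-seq it gave -0.93 to 0.74 for eIF2D KO, -1.39 to 0.62 for clone #1, -0.80 to 0.87 for clone #2, -1.03 to 0.11 for clone #1 against #2, -0.46 to 0.25 for MCTS1 KO #1 and -1.34 to 0.34 for the difference of KO effects. In Sel-TCP-seq it gave -0.37 to 2.74 for eIF2D-V5 against both others and -1.02 to 4.78 against DENR-V5.

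Against WT, siDENR #1 mRNA was 0.17 (adjusted p = 0.056) with DESeq2 and 0.17 (adjusted p = 0.054) without a filter. With library totals alone, MCTS1 KO mRNA was -0.000375. With only the groups compared, MCTS1 KO #1 against #2 mRNA was -0.12 (adjusted p = 0.037). Without a filter, its efficiency difference was 0.025. With the other WT pair, TCP-seq values were 0.078 for eIF2D KO, 0.22 for clone #2 and -0.16 for MCTS1 KO. With TMM sizes the footprint ratio of MCTS1 KO #1 was 0.418. The cause was not tested. DESeq2 gave no adjusted p for EIF2D in TCP-seq or Sel-TCP-seq. A comparison with another EIF2D transcript was not run, since no table names one.

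Within an assay, replicate differences correlated little between groups in RNA-seq (-0.047 to 0.065), Ribo-seq (-0.090 to 0.12) and TCP-seq (-0.036 to 0.029). Such values cannot show that same-numbered replicates share nothing. Pairing of RNA-seq with Ribo-seq libraries of a group was not tested. A replicate block changed no EIF2D call (0.60 for siDENR mRNA, 0.47 for siDENR footprints, -0.47 for eIF2D KO TCP-seq), and Sel-TCP-seq calls were 4498 with it against 2681.

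Counts of called transcripts moved most in TCP-seq and Sel-TCP-seq: over all alternatives 35 to 5414 for eIF2D KO (831 as reported), 2225 to 7377 for MCTS1 KO (7017), 247 to 2357 for the difference (1776) and 332 to 4704 for eIF2D-V5 (2681). In efficiency they were 317 to 1309 for siDENR (638) and 466 to 2075 for MCTS1 KO (844). In RNA-seq they were 24005 to 44322 for siDENR (37463), 10166 to 32828 for MCTS1 KO (23370) and 21939 to 41301 for siControl (36839), and in Ribo-seq 7464 to 13426 (13448), 2697 to 7643 (5829) and 7666 to 13348 (13173). With library totals alone, higher and lower calls were 466 and 275 for eIF2D KO, against 345 and 486, and 2401 and 431 for eIF2D-V5, against 1550 and 1131. Both ends of the eIF2D-V5 range came from fits without the filter, while 2681 came from the filtered fit of 12135 transcripts. Fits without the filter tested many more transcripts, so that range is not movement within 1 tested set. Depth limits TCP-seq, where EIF2D had 4 to 29 counts.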
